A study of Mus musculus with 12 samples.

Results

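The genes described here were 10 immediate early genes, Fos, Fosb, Jun, Junb, Egr1, Atf3, Ier2, Btg2, Dusp1 and Nr4a1, which were chosen by name as genes often raised when tissue is dissociated. All 10 were found among the 31055 genes of the single-cell tables and among the 45808 genes of the bulk table. Immediate early genes are transcribed within minutes of a stimulus such as growth factors, calcium entry or mechanical stress, without new protein synthesis. Transcription factors that are already present, among them CREB at cAMP response elements (CRE), switch them on. In islets they respond to secretory stimuli, and they are also known to respond to the enzymes and handling used to release single cells.

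The study characterised pancreatic γ-cells, the islet cells that make pancreatic polypeptide (Ppy). All mice were of mixed background and 2 months old. Per the labels, doxycycline (DOX) was given at 1 mg/ml in drinking water, 1 month before extraction. For single cells, Ppy-rtTA; R26-YFP mice were used, in which DOX marks Ppy-expressing cells with YFP, and the YFP+ and the YFP- fractions of 2 experiments gave 4 libraries. For bulk RNA-seq, 5 γ-cell libraries were YFP+ cells of Ppy-rtTA; TetO-Cre; R26-YFP mice, and 3 δ-cell libraries were YFP+ cells of Sst-Cre; R26-YFP mice. In the Ppy-rtTA line the reverse transactivator replaces the Ppy coding sequence of 1 allele, so that the Ppy regulatory elements drive the label. No undissociated tissue was measured, so that the effect of dissociation itself was not tested. γ-cell libraries were sequenced in paired-end mode and δ-cell libraries in single-end mode on another HiSeq model, so that line, platform, read layout and cell type cannot be told apart in bulk.

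The 4 single-cell libraries held 5982 cells with a median of 4237 to 8338 UMIs (counted molecules) per cell, and any pair of libraries shared 1 to 6 cell barcodes. Cells were placed in hormone classes by Ppy, Gcg (glucagon, α-cells), Ins2 (insulin, β-cells) and Sst (somatostatin, δ-cells), and a class name with 2 hormones means bihormonal cells. Monohormonal Ppy cells came from the YFP+ fraction, and Gcg, Ins2 and Sst cells from the YFP- fraction. In bulk, summed Ppy and Pyy stood at 162800 to 202500 CPM (counts scaled to library size) in γ-cell libraries and at 25230 to 38140 in δ-cell libraries, while Sst, Hhex and Rbp4 summed to 7683 to 12190 and 71040 to 103100. Each set thus carried its defining markers, with some of the other set's. α-cell markers summed to 45510 to 85640 CPM in γ-cell and to 1620 to 6923 in δ-cell libraries. β-cell markers summed to 9831 to 21550 CPM in γ-cell and to 4139 to 5344 in δ-cell libraries. The part of α- and β-cell markers in the differences between γ- and δ-cells was not tested. Acinar markers summed to 2262 to 12780 CPM in γ-cell libraries and to 25280 to 102200 in δ-cell libraries.

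The promoters of 8 of the 10 genes were in the RefSeq table, and those of Egr1 and Ier2 were not. In the 250 bases before the start site, on either strand, the CRE core (TGACG) was present in 7 of the 8, all but Jun, and in 17.77% of 32851 promoters. The full CRE (TGACGTCA, which contains the core) was present in Btg2 and Dusp1, and in 1.55% of promoters. The TATA box (TATAAA) was found in Fos, against 12.37% of promoters. Neither the AP-1 site (TGANTCA) nor the CArG box was matched in any of the 8, against 6.75% and 1.47% of promoters. Stretches of 5 of these promoters are shown. Jun, whose log2 difference between Ppy and Ins2 cells was the largest of the genes tested (2.43), had no match and is not among them. Nr4a1, with 4 core matches, and Atf3 are not among them either. No link between these motifs and the class differences was tested. The stretches shown read 5′ to 3′ along the gene (GRCm38.p6, RefSeq), with matches to the CRE core and the full CRE in capitals. They lie at chr12:85473731-85473858 on the plus strand (Fos), and on the minus strand at chr7:19310071-19310135 (Fosb), chr8:84978820-84978884 (Junb), chr1:134079284-134079351 (Btg2) and chr17:26508578-26508693 (Dusp1).
Fos: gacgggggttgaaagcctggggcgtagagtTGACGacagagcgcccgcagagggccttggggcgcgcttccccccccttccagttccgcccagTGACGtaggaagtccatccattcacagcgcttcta
Fosb: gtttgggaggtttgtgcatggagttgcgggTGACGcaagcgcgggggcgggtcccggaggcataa
Junb: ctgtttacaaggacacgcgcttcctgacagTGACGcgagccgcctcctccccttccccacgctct
Btg2: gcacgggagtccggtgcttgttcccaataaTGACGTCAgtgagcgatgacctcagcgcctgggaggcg
Dusp1: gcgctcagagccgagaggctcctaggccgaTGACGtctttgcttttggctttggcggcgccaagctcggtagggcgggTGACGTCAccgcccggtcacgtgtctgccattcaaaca

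In single cells, the 10 genes together made up the smallest share of UMIs in Ins2 cells and larger shares in every other class. Their sum was 206 CPM in experiment 1 and 225 in experiment 2 in Ins2 cells. It was 1058 and 725 CPM in Ppy cells, 983 and 768 in Gcg cells, and 616 and 857 in Sst cells. The experiments did not order the classes in the same way, since experiment 1 was 1.459 times experiment 2 in Ppy cells but 0.719 times in Sst cells. Among YFP+ bihormonal cells the sums were 1072 and 885 CPM for PpyGcg, 1108 and 996 for PpySst, and 675 and 570 for PpyIns2. Among YFP- bihormonal cells they were 889 and 882 CPM for PpyGcg, and 660 and 1007 for PpySst. Only the Ins2 class thus lay apart from all the others in both experiments.

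Hormone transcripts take a large part of the UMIs of an islet cell, and that part differed between classes. It was 69.75 and 65.98% in Ins2 cells, 52.29 and 53.45% in Ppy cells, 33.77 and 34.05% in Gcg cells, and 26.79 and 19.19% in Sst cells. Without hormone UMIs the sums were 2217 and 1557 CPM in Ppy cells, 1485 and 1165 in Gcg cells, 841 and 1060 in Sst cells, and 682 and 661 in Ins2 cells. On this scale, Ppy and Gcg cells lay above Sst and Ins2 cells in both experiments. As UMIs per cell, the order differed again, with 8.98 and 5.08 in Ppy cells, 8.35 and 5.97 in Gcg cells, 4.89 and 3.14 in Ins2 cells, and 2.63 and 2.57 in Sst cells, which had the lowest depth. The comparisons below use TMM scaling, whose factors ran from 0.482 in Ins2 to 1.54 in YFP- PpySst sums, and which therefore stands closer to the hormone-free scale.

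**Figure D1:**
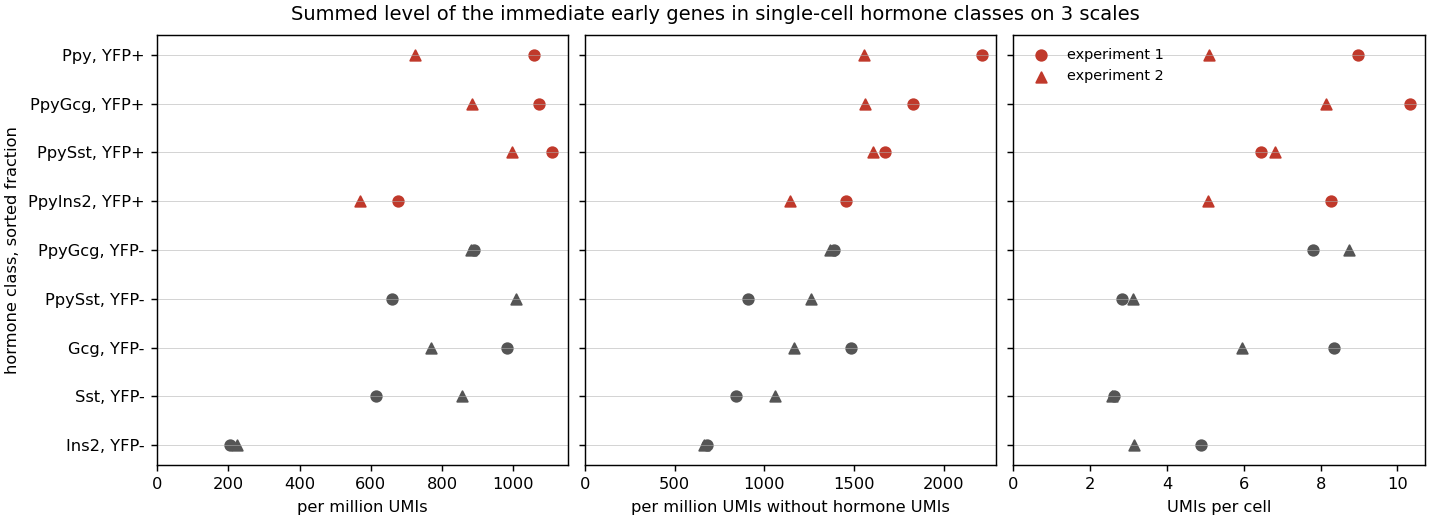
Summed level of the 10 genes in each hormone class and sorted fraction, as CPM (left), as CPM without hormone UMIs (middle) and as UMIs per cell (right), with 1 point per experiment. Ins2 cells were lowest on the left and middle scales, and Sst cells on the right one.

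The genes were detected across cells and not in a few cells only. After each cell was thinned to 1000 UMIs, which left out no cell, the share of cells without a UMI of any of the 10 genes was 80.46 and 79.12% in Ins2 cells. It was 39.32 and 51.13% in Ppy cells, 36.63 and 50.16% in Gcg cells, and 60.33 and 37.50% in Sst cells. Without thinning these shares were 8.51 and 18.68% in Ins2, 4.01 and 10.25% in Ppy, 1.98 and 9.15% in Gcg, and 20.66 and 20.31% in Sst cells, at median depths of 23864 and 12435, 7616 and 5989, 7654 and 6423, and 4100 and 3012 UMIs. No islet cell type is known to lack these genes, so that a share due to free RNA was not measured. The tenth of cells in which these genes made up the largest share of UMIs held 18.45 and 19.09% of the UMIs of these genes in Ppy cells and 28.93 and 25.53% in Sst cells.

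Cells that were not endocrine expressed the genes as well. The sum was 1366 and 2249 CPM in the YFP- cluster led by Fabp4 and Rbp7 (endothelial markers), and 1211 to 2205 in the 4 sums of the cluster led by Dcn and Col3a1 (stromal markers). In the cluster of 168 cells led by Ctrb1 and Try5 (acinar markers), it was 1392 and 1476 CPM. With doublets kept, the clustering gave 134 cells led by ductal markers (Spp1, Clu and Ambp) and 34 led by Ctrb1 and Cpb1. These 1392 and 1476 CPM may thus not be those of acinar cells alone. The sum was 547 and 350 CPM in the cluster led by Jchain and Igkc (B-lineage markers). In the cluster led by Lyz2 and Retnla, with 578 cells the one with the most cells, it was 1050 and 924 CPM in the YFP+ and 937 and 794 in the YFP- fraction, within the range of the endocrine classes. Acinar markers summed to 44.8 to 793 CPM over the endocrine classes and were higher in Sst cells (494 and 641) than in Ppy cells (150 and 105). Their part in the class differences was not tested.

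On TMM-scaled means over both experiments, the genes of the AP-1 family (Fos, Fosb, Jun and Junb, which pair to form a transcription factor) and Ier2, Btg2 and Egr1 were highest in Ppy or Gcg cells among monohormonal classes. In plain CPM of experiment 2, Sst cells were highest for Fos (195 against 159 in Ppy and 179 in Gcg cells), Jun (122 against 88.9 and 87.8), Ier2 (91.2 against 75.2 and 52.4) and Btg2 (169.3 against 167.7 and 135.3). A gene was called in edgeR's quasi-likelihood test, run over 9079 genes, where its adjusted p was no more than 0.05 and its log2 difference beyond 0.721. Atf3, a stress-induced repressor of the ATF/CREB family, did not pass the filter on low counts at 0.097 to 2.60 CPM in monohormonal classes, which left 9 genes. p-values measure the spread between sums of a class across 2 experiments, pooled over all 18 sums, and sums from 1 library share that library.

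Ppy cells exceeded Ins2 cells in 8 of the 9 genes, where 26.6% of all genes were called and 12.4% were higher. Jun, at 138 and 111 TMM-scaled CPM in Ppy cells, was at 21.3 and 27.6 in Ins2 cells, a log2 difference of 2.43 ± 0.20 (SE; adjusted p = 2.7e-13). Ier2, a nuclear regulator of transcription, was at 172 and 94.0 against 28.8 and 29.0 (2.34 ± 0.18). Fosb was at 47.1 and 31.8 against 12.1 and 6.58 (1.92), Junb at 196 and 99.9 against 53.3 and 36.9 (1.74), and Fos at 291 and 199 against 103 and 116 (1.22). For all of these, both Ppy sums lay above the Ins2 sums of the same experiment. Nr4a1, an orphan nuclear receptor, differed by 1.49, Btg2, an antiproliferative factor, by 1.28, and Egr1, a zinc finger transcription factor, by 1.05. Nr4a1 rested on low levels, 6.76 and 9.97 TMM-scaled CPM in Ppy cells against 2.41 and 2.63 in Ins2 cells. DESeq2 called 7 of the 9 genes in this comparison. Dusp1, a phosphatase that switches off MAP kinases, was at 15.9 and 8.07 against 12.9 and 10.5, and its difference of 0.12 had a 95% interval of -0.42 to 0.66.

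Against Sst cells, 7 of the 9 genes were higher in Ppy cells, beside 13.0% of all genes called and 5.45% higher. Fosb differed by 1.66, Junb by 1.46 and Jun by 1.31 on the log2 scale, followed by Btg2 (1.23), Fos (1.10), Ier2 (0.99) and Egr1 (0.77). Jun was at 24.5 and 80.9 TMM-scaled CPM in Sst cells, so that its log2 difference was 2.44 in experiment 1 and 0.45 in experiment 2. The difference of Fos was 1.54 and 0.62, and that of Junb 1.98 and 0.76, again smaller in experiment 2. Nr4a1 (1.05) and Dusp1 (-0.21) were not called. These directions rested on the scaling in experiment 2, where the plain CPM of 6 of the 7 genes were higher in Sst than in Ppy cells, those of Fos, Jun, Ier2 and Btg2 given above, Junb (88.6 against 79.9) and Egr1 (141 against 113), and only Fosb was lower.

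Against Gcg cells, 5 genes were higher in Ppy cells, beside 12.7% of all genes called and 6.07% higher. They were Nr4a1 (2.12), Ier2 (1.10), Fosb (0.81), Jun (0.74) and Btg2 (0.73). Nr4a1 rested on low levels, 6.76 and 9.97 TMM-scaled CPM in Ppy cells against 1.13 and 2.63 in Gcg cells. Without the experiment in the model Fosb, Jun and Btg2 lost their calls, and with DESeq2 Fosb and Jun did. Fos (0.25, 95% interval -0.06 to 0.56), Junb (0.18, -0.08 to 0.43) and Egr1 (-0.22, -0.46 to 0.01) were not called. Ppy and the other monohormonal classes came from different sorted fractions, so that class and fraction cannot be told apart in these 3 comparisons.

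The 3 monohormonal classes other than Ppy shared the YFP- libraries. Gcg cells exceeded Ins2 cells in 6 genes, where 23.0% of all genes were called and 10.9% were higher: Jun by 1.69, Junb by 1.56, Egr1 by 1.27, Ier2 by 1.24, Fosb by 1.11 and Fos by 0.96. They exceeded Sst cells in 3 genes, where 13.0% were called and 5.71% higher: Junb by 1.28, Egr1 by 1.00 and Fos by 0.85. In experiment 2 these 3 differences were smaller, at 0.72, 0.81 and 0.36. Sst cells exceeded Ins2 cells in Ier2 (1.35) and Jun (1.12), where 16.2% were called and 8.02% higher, and the difference of Jun was 0.19 in experiment 1 and 1.52 in experiment 2. Jun was not called without the experiment in the model or with DESeq2, and neither gene with cells thinned to 1000 UMIs.

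**Figure D2:**
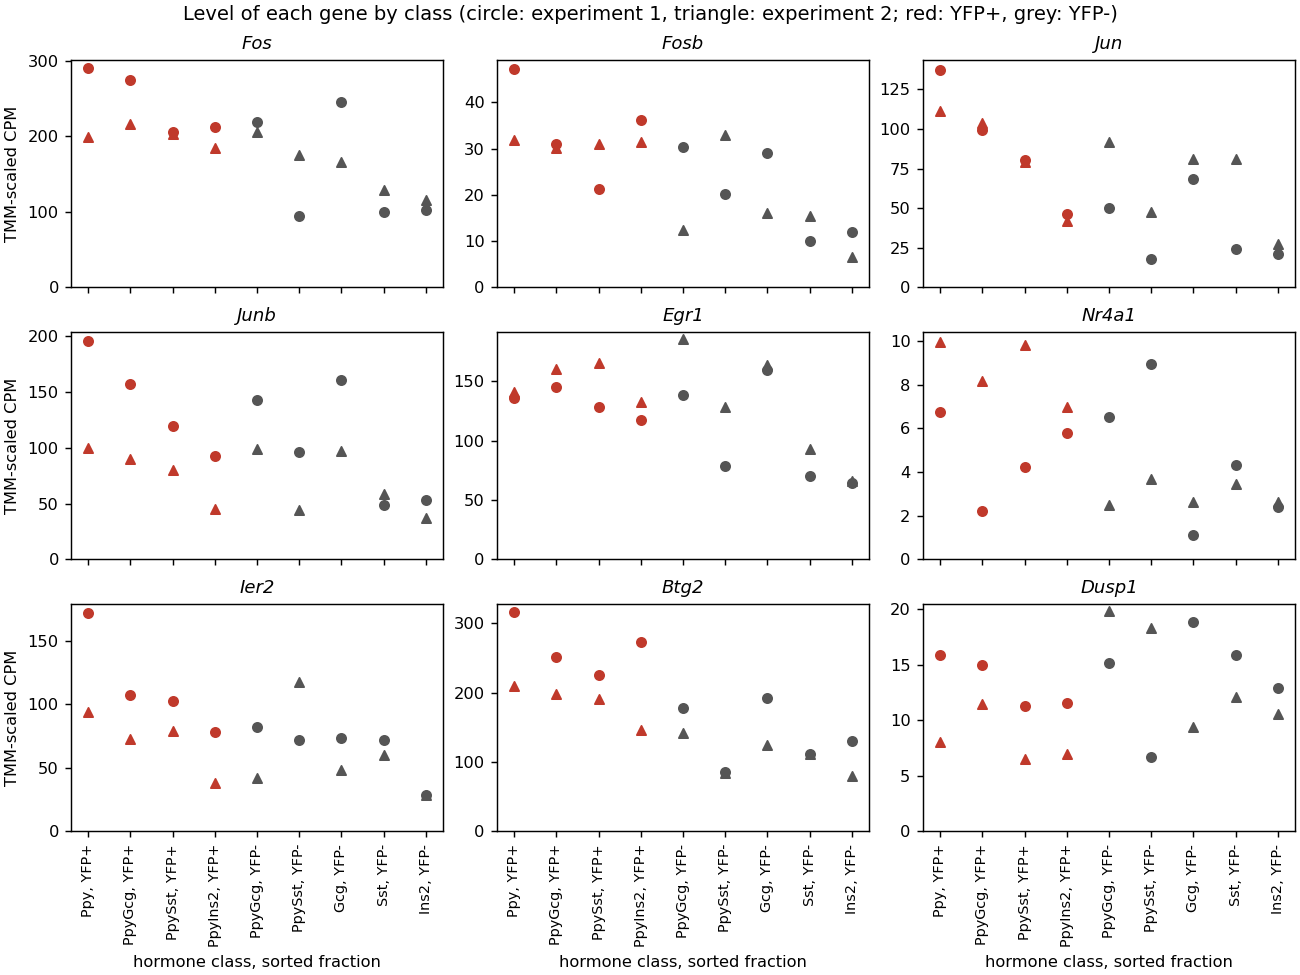
TMM-scaled CPM of the 9 tested genes by hormone class and sorted fraction, with circles for experiment 1 and triangles for experiment 2. Jun was at 111 or more in Ppy cells and at 27.6 or less in Ins2 cells, while Dusp1 overlapped between most classes.

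Within the YFP+ fraction, bihormonal cells were compared with Ppy cells of the same libraries. PpyIns2 cells were lower in Jun (-1.45), Ier2 (-1.10) and Junb (-1.04), where 7.15% of all genes were called and 2.57% were lower. In them Jun was at 46.4 and 41.9 TMM-scaled CPM, Ier2 at 78.2 and 38.4, and Junb at 92.7 and 45.4, and the differences were of like size in both experiments (Jun -1.55 and -1.39). This comparison held 73 and 36 PpyIns2 cells and was added to those first planned. In PpyIns2 cells β-cell markers summed to 515215 and 449346 CPM, against 2878 and 1181 in Ppy cells. Ppy and Pyy summed to 76648 and 102530 against 519921 and 532148 CPM. Bihormonal cells were taken from any endocrine cluster, whereas the study kept only those of its bihormonal cluster. The part of this marker mix, and of doublets that were not marked, in the differences was not tested. Ier2 and Junb lost their calls without the experiment in the model, and all 3 with cells thinned to 1000 UMIs. Neither PpyGcg nor PpySst cells differed from Ppy cells in a called gene under edgeR or DESeq2, beside 2.04 and 5.29% of all genes called. At an unadjusted p under 0.05 there were 2 and 4 of the 9 genes, and all 6 of those differences were lower in bihormonal cells, the largest being Jun in PpySst at -0.66.

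The same bihormonal class could be compared between fractions, within each experiment, but the fractions did not hold like cells. In PpySst cells, Sst, Hhex and Rbp4 summed to 88024 and 50783 CPM in YFP+ and to 195691 and 148119 in YFP- sums. Ppy and Pyy summed to 248654 and 327544 against 69769 and 48285 CPM. In PpyGcg cells, Ppy and Pyy summed to 257432 and 326635 against 54173 and 59056 CPM. The part of this mix in the fraction differences was not tested. In PpySst cells, Btg2 was higher in the YFP+ than in the YFP- fraction, at 226 and 190 against 85.2 and 84.3 TMM-scaled CPM (log2 difference 1.36 ± 0.22, adjusted p = 0.000106, edgeR), where 0.980% of all genes were called. This call was lost without the experiment in the model and with cells thinned to 1000 UMIs. Jun differed by 1.41, which did not pass (adjusted p = 0.0716, edgeR), with 2.10 in experiment 1 and 0.72 in experiment 2. At an unadjusted p under 0.05 (edgeR) there were 5 of the 9 genes, Fos (0.70), Egr1 (0.58) and Junb (0.50) beside Btg2 and Jun. In PpyGcg cells no gene was called under edgeR or DESeq2, beside 1.07% of all genes, and 3 of 9 had an unadjusted p under 0.05. The fraction effect did not differ between both classes in a called gene under either tool, beside 0.286% of all genes, with 2 of 9 at an unadjusted p under 0.05. For Btg2 the difference of effects was -0.86 with a 95% interval of -1.43 to -0.28. YFP- sums held 37 to 76 cells, against 99 to 336 in the YFP+ sums.

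A pair of clusters had Ins2 among their leading genes, and the sum of the 10 genes is given here over all their cells, whatever their hormone class. In the YFP- fraction of the cluster led by Ins1, G6pc2, Mafa and Ucn3, genes of mature β-cells, it was 179 and 251 CPM. In the cluster with Gast, Defb1, Iapp and Chga among its leading genes it was 484 and 658 CPM in the YFP- fraction. Its YFP+ fraction, 92 and 98 cells with sums of 843 and 943 CPM, held cells of other classes, since the Ins2 class had 1 YFP+ cell in all. Median UMIs per cell were 26088 and 13706 in the first and 14468 and 10212 in the YFP- part of the second. No test was made, since clusters were formed on the same cells.

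In bulk, 8 of the 10 genes passed the bulk test of γ- against δ-cells (edgeR, adjusted p up to 0.05 and log2 difference of 1 or more), where 35.0% of 17926 genes were called. They did not move together, since 5 were lower and 3 were higher in γ-cells, against 14.2% lower and 20.7% higher over all genes. Bulk levels are given as plain CPM, whereas log2 differences come from the fit with TMM scaling, so that the ratio of printed levels differs from them. The sum of the 10 genes was 2400 to 4177 CPM in γ-cells and 3980 to 6983 in δ-cells, and the ranges overlapped, as they did after TMM scaling (2615 to 4445 and 3739 to 6036). In a bulk library, fewer cells of a type and less RNA per cell cannot be told apart. The groups did not overlap for 7 genes in CPM, as was so for 57.5% of all genes, and for 8 genes, Ier2 being added, in TMM-scaled CPM, as for 54.2% of all genes.

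Among AP-1 and ATF genes, Fos, Fosb and Atf3 were lower in γ-cells, and Junb and Jun were higher. Fos ranged from 310 to 981 CPM (median 457) in γ-cells and was 2437, 1618 and 2545 in the δ-cell libraries, a log2 difference of -1.70 ± 0.33 (SE; adjusted p = 0.00144, edgeR). Fosb was at 20.95, 10.1, 8.95, 42.6 and 14.6 in γ-cells and at 264, 126 and 270 in δ-cells (-3.21 ± 0.46). Atf3 was at 5.22, 1.29, 1.10, 6.94 and 2.32 in γ-cells and at 88.1, 20.2 and 92.5 in δ-cells (-4.00 ± 0.62). For these 3 genes all δ-cell libraries lay above all γ-cell libraries. Junb had the opposite order, with 338, 282, 369, 407 and 318 in γ-cells and 68.3, 47.0 and 96.5 in δ-cells (2.56 ± 0.21, adjusted p = 3e-06, edgeR). Jun was at 704, 552, 550, 677 and 385 in γ-cells and at 184, 104 and 604 in δ-cells, so that the third δ-cell library overlapped the γ-cell range (1.24 ± 0.46, adjusted p = 0.0442, edgeR). Jun lost its call when any of γ-cell libraries 1 to 4 or δ-cell libraries 1 and 2 was left out (0.86 to 1.26), and under upper-quartile normalization (0.97).

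Of the other genes, Nr4a1 and Btg2 were lower in γ-cells, Dusp1 was higher, and Egr1 and Ier2 were not called. Nr4a1 was at 54.2, 19.95, 24.2, 28.4 and 15.2 CPM in γ-cells and at 211, 101 and 353 in δ-cells (-2.67 ± 0.41). Btg2 ranged from 401 to 612 in γ-cells and from 1397 to 2019 in δ-cells (-1.59 ± 0.17). Dusp1 was at 165, 106, 130, 195 and 106 in γ-cells and at 105, 51.6 and 79.7 in δ-cells (1.12 ± 0.24), a gap that was narrow between the lowest γ-cell and the highest δ-cell library. It lost its call without γ-cell library 4 (0.97) or δ-cell library 2 (0.92), and under upper-quartile normalization (0.81). Ier2 differed by 0.79 ± 0.16, under the threshold of size, and Egr1 by 0.49 with a 95% interval of 0.00 to 0.98. δ-cell library 2 was the lowest δ-cell library for all 10 genes.

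**Figure D3:**
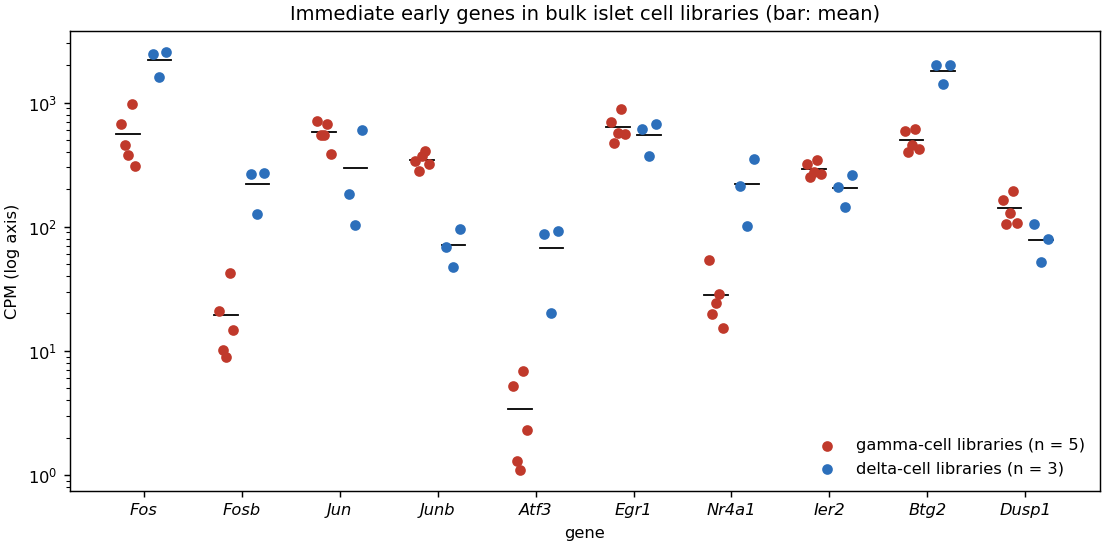
CPM of each gene on a log axis in the 5 γ-cell (red) and 3 δ-cell (blue) bulk libraries, with bars at the means. Fos, Fosb, Atf3, Nr4a1 and Btg2 were higher in every δ-cell library, and Junb and Dusp1 in every γ-cell library.

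Acinar markers were higher in all δ-cell than in all γ-cell libraries. In δ-cell libraries 1, 2 and 3 acinar markers summed to 102200, 91420 and 25280 CPM, and the 10 genes to 6192, 3980 and 6983. The part of acinar RNA in the levels of the 10 genes was not tested. Myeloid markers overlapped, at 1456 to 2099 CPM in γ-cells and 1552 to 2160 in δ-cells. Jun overlaps the antisense gene Junos over 232 bases, Junb overlaps Prdx2 over 173 bases and Dusp1 overlaps Ergic1 over 11 bases, all on the other strand, and reads there could not be assigned to a strand from the counts.

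Per length of exons (RPKM, mean ± SD), the levels of different genes can be compared only roughly. The length is that of all annotated exons of a gene together, such as 6243 bases over 7 transcripts for Fosb. Which transcripts were present was not determined. In γ-cells, Fos stood at 238 ± 116, Ier2 at 191 ± 25.2, Btg2 at 181 ± 35.0, Jun at 180 ± 39.7, Junb at 149 ± 20.7 and Egr1 at 142 ± 35.7 (n = 5). Neighbours in this order lay within their spread. Dusp1 followed at 42.4 ± 11.7, Nr4a1 at 8.09 ± 4.34, Fosb at 3.11 ± 2.21 and Atf3 at 1.57 ± 1.201. In δ-cells, Fos (935 ± 216) and Btg2 (660 ± 130) stood above Ier2 (134 ± 37.3), Egr1 (122 ± 35.3) and Jun (93.2 ± 84.1), and Fosb, Atf3 and Junb lay at 35.2 ± 13.0, 31.1 ± 18.8 and 30.7 ± 10.8 (n = 3).

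γ- and δ-cells could be set side by side in both kinds of data. With TMM scaling, Junb and Jun were higher in γ-cells in both, with log2 differences of 2.56 and 1.24 in bulk and 1.46 and 1.31 in single cells. The bulk call of Jun was lost when any of several libraries was left out, as given above. Fos, Fosb and Btg2 were lower in γ-cells in bulk (-1.70, -3.21 and -1.59) and higher in single cells (1.10, 1.66 and 1.23). Nr4a1 was also lower in bulk (-2.67), and its single-cell difference of 1.05 was not called. The difference between both kinds of data was not tested. With TMM scaling, and also in CPM without hormone UMIs, the single-cell signs of Fos, Btg2 and Nr4a1 held in both experiments. In plain CPM they did not, since Sst cells were above Ppy cells for Fos and Btg2 in experiment 2 and for Nr4a1 in experiment 1 (5.81 against 5.42). Jun (122 against 88.9) and Junb (88.6 against 79.9) were likewise higher in Sst than in Ppy cells in plain CPM of experiment 2. Both kinds of data differed in mouse line of the δ-cells, in cell selection and in library chemistry, which cannot be told apart here.

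**Figure D4:**
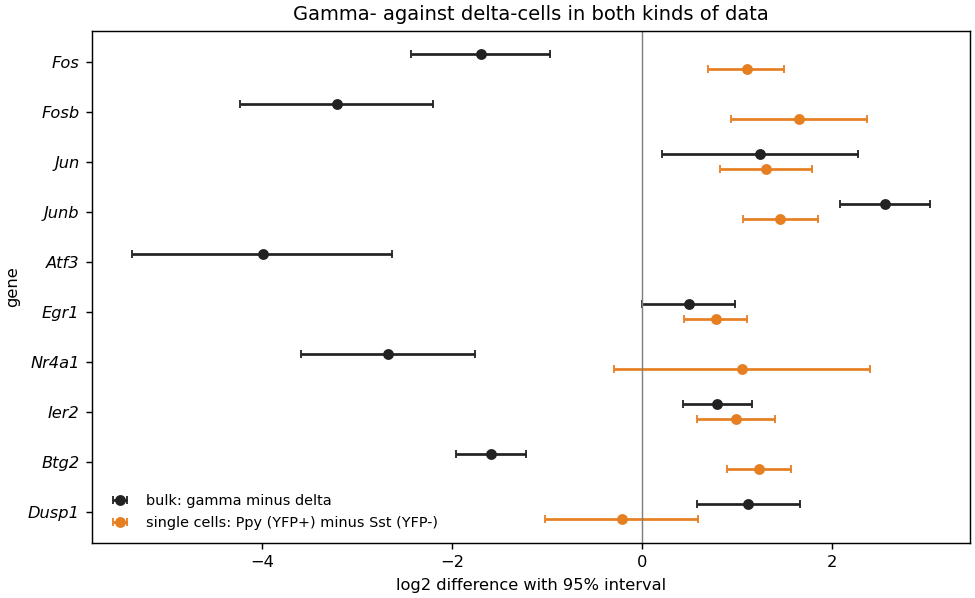
Log2 difference of γ- minus δ-cells with its 95% interval for each gene, in bulk (black) and in single cells (orange, Ppy minus Sst). With TMM scaling in both, Fos, Fosb and Btg2 lie left of 0 in bulk and right of 0 in single cells, while Jun and Junb lie right of 0 in both. In plain CPM the single-cell differences of Fos, Btg2, Jun and Junb have no single sign over the experiments. Atf3 has no single-cell value.

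Other immediate early and dissociation-related genes, a list of 53, were split as well. In bulk 28 of 53 were called, 13 higher and 15 lower in γ-cells (over all genes 35.0% were called, 20.7% higher and 14.2% lower), with a median log2 difference of 0.01 against -0.06 over all genes, and against -0.55 over the 10 genes. The largest falls were in Arc, a synaptic activity gene (-4.83), Egr2 (-4.27), Cyr61, a matrix protein (-3.57), Egr3 (-3.41) and Kdm6b, a histone demethylase (-3.19). The largest rises were in Ier5 (4.38), Cebpd (4.13), Zfp36l2 (3.64), Jund (2.90) and Dusp2 (2.69). Of 18 heat shock and stress genes 9 were called, 7 of them lower in γ-cells (against the same shares over all genes), among them the chaperones Hspa1a (-5.97), Dnajb1 (-4.08), Dnaja1 (-2.76), Hspa1b (-2.73) and Hspe1 (-1.997). Ddit4 (2.60) and Hspb1 (1.08) were higher.

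In single cells 30 of the 53 genes passed the filter. Ppy cells differed from Ins2 cells in 11 of them, 6 higher and 5 lower, with Gadd45b (3.02), Klf4 (2.21) and Zfp36 (1.83) among the higher and Dusp5 (-1.76) and Trib1 (-1.28) among the lower ones. They differed from Sst cells in 7, with 4 higher, among them Zfp36 (2.87) and Klf10 (1.94), and 3 lower, among them Crem (-1.10). They differed from Gcg cells in 9, with 5 higher, led by Id2 (1.70) and Ier5 (1.56), and 4 lower. Over all genes 26.6, 13.0 and 12.7% were called in these 3 comparisons. The medians over the 30 genes were 0.07, -0.03 and -0.12, against 1.49, 1.10 and 0.73 over the 9 genes and 0.00, 0.00 and -0.01 over all genes. Of the 15 stress genes tested, 4, 1 and 2 were called in these comparisons, which is near or under the shares over all genes. In bulk and in single cells, then, called genes of the wider list lay on both sides.

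The genes whose log2(CPM + 1) was most correlated with the mean log2(CPM + 1) of the 10 were sought among genes with a mean of 10 CPM or more outside the lists. Over the 18 single-cell sums they were Dstn (r = 0.962), Hcfc1r1 (0.957), Cox14 (0.947), Etv1 (0.939) and Oaz2 (0.934). Over the 8 bulk libraries they were Rbm26 (0.995), Nbeal1 (0.985), Zcchc11 (0.984), Mycbp2 (0.978) and Prkab2 (0.978). These are the highest of many correlations, and the sums share libraries and depth.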

How the data were processed

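The single-cell files hold UMI counts, which the authors made with Cell Ranger on mm10, and the bulk table holds raw counts per gene, which the authors made with STAR 2.7.2b and HTSeq 0.9.1 on GRCm38.p6. The strand setting is not given in the sources used here, and 6 bulk columns without a sample were not used. Scrublet and a nearest-neighbour caller written after DoubletFinder marked 128 of 5982 cells as doublets (Scrublet 8, or 0.134%, under what a working caller gives), which left 5854. Cells were clustered with Seurat 5.3.0 without the listed immediate early and stress genes, 5 non-endocrine clusters were removed, and hormone classes were set by density minima. UMIs were summed per class, fraction and experiment and tested with edgeR 4.0.16 (TMM, filterByExpr, quasi-likelihood, experiment as a block), a spread being pooled over 18 sums. Deviations of sums of the same experiment correlated at 0.053 to 0.443 (median 0.19). Bulk libraries of 7641916 to 31784878 counts were tested with edgeR on genes of at least 5 counts on average. DESeq2 1.42.0 was an alternative. On simulated data the Gcg against Ins2 comparison (6216 genes) called 77.6% of 2-fold and 100% of 4-fold changes, and the bulk comparison (17661 genes) 7% and 77%. The genes, lists and tests were chosen with earlier results of these data known. Named genes were the 10 and, from each list, the 5 largest called changes in each direction per comparison, of which a part is printed. The labels do not say whether bulk libraries came from separate mice, so p-values measure the spread between libraries only.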

Additional observations from a re-analysis of the deposited data

Results flagged for a closer look

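The γ- against δ-cell difference had opposite signs in bulk and in single cells for 4 genes, with groups that did not overlap in bulk and the same sign in both single-cell experiments after TMM scaling, and the difference between both kinds of data was not tested. The log2 differences were -1.70 in bulk and 1.10 in single cells for Fos, -3.21 and 1.66 for Fosb, -1.59 and 1.23 for Btg2, and -2.67 and 1.05 for Nr4a1. In plain CPM the single-cell sign was not the same in both experiments for 3 of these genes, since Sst cells were above Ppy cells in experiment 2 for Fos (195 against 159) and Btg2 (169.3 against 167.7) and in experiment 1 for Nr4a1 (5.81 against 5.42), so that the opposite signs depend on the scaling. In CPM without hormone UMIs these 3 genes were higher in Ppy cells in both experiments, as with TMM scaling. Fosb was higher in Ppy cells in both experiments in plain CPM too (37.7 against 13.6 and 25.4 against 23.4). A Dixon test (critical value 0.71) flagged no γ-cell bulk library for any of the 10 genes or for their sum, but with 5 libraries it has little power. γ-cell library 4 had the highest sum of the γ-cell libraries (4177 CPM), and was the highest of them for all 10 genes but Jun and Nr4a1.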

How the results depend on the processing

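No called difference of the 10 genes changed direction under any alternative run, none of which was a fit on plain CPM (in experiment 2, Fos was at 195 plain CPM in Sst and 159 in Ppy cells, against its TMM-scaled difference). In bulk the count of called genes was within 1.5 times 8 under all 16 alternatives, and was 6 to 8 when a library was left out. A replicate block over libraries 1 to 3 of both groups gave 8 called genes. Same-numbered bulk libraries had correlations of -0.0952, 0.0678 and -0.274, so the numbers did not pair them. In single cells 102 of 120 counts stayed within 1.5 times. Without the replicate block, counts changed for Ppy against Gcg (2), Sst against Ins2 (1), PpyIns2 against Ppy (1) and PpySst between fractions (0). With cells thinned to 1000 UMIs, which left fewer of the genes to test, they were 3 for Ppy against Gcg, 5 for Ppy against Ins2, 4 for Ppy against Sst, 2 for Gcg against Ins2, 0 for Sst against Ins2, 1 for PpySst against Ppy, 0 for PpyIns2 against Ppy and 0 for PpySst between fractions. DESeq2 gave 3 for Ppy against Gcg and 1 for Sst against Ins2, and leaving hormones out of the library sizes gave 3 for Ppy against Gcg. Without a fold threshold, 1 gene was called for PpyGcg and 2 for PpySst against Ppy, and without a filter 3 for PpySst between fractions. With doublets kept, the sum in YFP- PpyGcg cells of experiment 2 was 893 CPM. Beyond fewer genes tested, the causes were not tested. Leaving out an experiment gave differences without a test. Upper-quartile normalization moved the bulk median over all genes from -0.06 to -0.36 (3055 higher and 3746 lower in γ-cells, against 3715 and 2553).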
